A study of Homo sapiens with 18 samples.

Results

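The antioxidant and detoxifying enzymes whose genes are switched on by the transcription factor NRF2 were examined in head and neck squamous cell carcinoma (HNSCC) cells treated with hepatocyte growth factor (HGF). The enzymes were taken by gene symbol, as 10 of the 19901 genes in the count table, with earlier results of these data known. They were AKR1C1, AKR1C2, AKR1C3, AKR1B10, NQO1, GCLM, GCLC, TXNRD1, SRXN1 and HMOX1. All 10 passed the filter on low counts, which asks for reads in some libraries and not in each line. In Detroit 562 cells 5 of them fell upon HGF treatment, namely the 4 aldo-keto reductases, to between 27.7% and 36.6% of control, and GCLC, to 46.4%. Of all genes tested 11.7% fell in Detroit 562. In the model without pairing no enzyme passed the test in FaDu or SCC-9, where 0.0258% and 0% of all genes did. With libraries paired by replicate number, 6 of the 10 fell in FaDu and none did in SCC-9, against 3.6% and 1.41% of all genes. Of these 6, the aldo-keto reductases and GCLC fell by less than in Detroit 562.

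In resting cells NRF2 is bound by KEAP1 and handed to the proteasome. Electrophiles and oxidants modify KEAP1, and NRF2 then enters the nucleus, pairs with a small MAF protein and binds antioxidant response elements in the DNA near its target genes. The targets reduce aldehydes and quinones, make glutathione, recharge thioredoxin and peroxiredoxins and degrade heme. The pathway is often constitutively active in squamous carcinomas, through mutations of its genes.

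Detroit 562 is an established line from a metastatic site of a pharyngeal tumor, FaDu is from a primary hypopharyngeal tumor and SCC-9 from a primary tongue tumor. In each line 3 control libraries came from untreated cells and 3 from cells given HGF at 50 ng/mL. HGF is the ligand of the receptor tyrosine kinase Met. Treatment lasted 16 h by the sample records and the paper, while the series record gives 48 h. The medium was MEM-α for Detroit 562 and FaDu, while SCC-9 was kept in DMEM F12 with HEPES and hydrocortisone at 400 ng/mL, so cell line and medium cannot be told apart where SCC-9 is compared with the others. No gene was deleted or introduced. The libraries of a group are labelled as replicates 1 to 3 of the same line, and p values measure only the spread between these libraries, which may be technical in part.

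The total count on genes was between 35304770 and 44003970 per library. All 9 squamous epithelial markers examined passed the filter, with summed levels from 2756 to 12398 CPM (counts-per-million, after TMM normalization for library composition). Not all were high in each line. KRT14 was far lower in untreated Detroit 562 than in FaDu (log2 difference -8.32) or SCC-9 (-11.2). Of the markers of other cells, the leukocyte genes PTPRC, CD3E and LYZ reached at most 5 counts in any library, and only CD68 of this list was expressed. In Detroit 562 the summed squamous markers were at 3800 to 5185 CPM in control and 2756 to 4074 CPM in HGF-treated cells, and KRT5 and CDH1 of this list fell. The summed leukocyte list, in effect CD68, was at 20.3 to 40.6 CPM in control and 37.4 to 56.2 CPM with HGF. The fibroblast list was at 29.8 to 54.4 and 15.0 to 27.6 CPM, with COL1A1 and COL1A2 called lower. The endothelial list was near the limit of detection but fell without overlap, from 1.158 to 2.90 CPM in control to 0.487 to 1.06 CPM with HGF, and VWF of this list was called lower (log2 fold change -2.12, adjusted p = 0.0281). The part of these shifts in the results below was not tested, and in bulk RNA fewer expressing cells and less RNA per cell cannot be told apart.

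Several of the enzymes are encoded by near-identical genes, which limits what a count says about a single one. AKR1C1 (chr10:4963253-4983283, plus strand of GRCh38), AKR1C2 (chr10:4987400-5018031, minus strand) and AKR1C3 (chr10:5035354-5107686, plus strand) lie next to each other. Their coding sequences of 969 bases are 98% identical between AKR1C1 and AKR1C2, and AKR1C3 is 91.4% identical to AKR1C1. The first 75 coding bases of each, from the GENCODE 44 transcripts, show how little there is to separate them. Capitals mark bases that differ from AKR1C1.
AKR1C1: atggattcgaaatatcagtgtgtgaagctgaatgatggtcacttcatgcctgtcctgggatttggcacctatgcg
AKR1C2: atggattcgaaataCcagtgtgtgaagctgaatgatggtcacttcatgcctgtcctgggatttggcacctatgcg
AKR1C3: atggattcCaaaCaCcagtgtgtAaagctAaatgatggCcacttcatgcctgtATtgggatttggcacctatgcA
The AKR1C2 stretch has 1 mismatch to AKR1C1 and the AKR1C3 stretch has 9. Of all 75-base windows of the main transcript, 16.8% in AKR1C1, 36% in AKR1C2, 12.3% in AKR1C3 and 7.31% in AKR1B10 were identical to a window of another gene. Reads from such windows cannot be assigned, so the individual AKR1C values are uncertain by the reads they share.

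The other members lie apart. AKR1B10 is at chr7:134527592-134541408 on the plus strand, NQO1 at chr16:69706996-69726951 on the minus strand and GCLM at chr1:93885205-93909456 on the minus strand. GCLC is at chr6:53497341-53616970 on the minus strand, TXNRD1 at chr12:104215779-104350305 on the plus strand and HMOX1 at chr22:35380361-35394214 on the plus strand. SRXN1, at chr20:646615-653370 on the minus strand, lies in the same strand and region as a second annotated gene, known only by a clone name, over 6745 bases. Of the 75-base windows of SRXN1, 90.5% also occur there, and the 2 genes cannot be told apart in these counts. EID3 lies inside TXNRD1 on the same strand, and its count was at most 1.35% of that of TXNRD1.

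Before the comparisons, the spread between replicates has to be given, because it was large for several of these enzymes. In untreated Detroit 562 the highest library was 4.41 times the lowest for AKR1B10, 2.80 times for AKR1C1 and 2.08 times for GCLC, but 1.08 times for TXNRD1 and 1.23 times for GCLM. In FaDu HMOX1 was spread as widely (3.92 times), and in SCC-9 NQO1, GCLM, GCLC, TXNRD1, SRXN1 and HMOX1 stayed within 1.21 times. In Detroit 562 and FaDu the library numbered 3 stood below the other two for the aldo-keto reductases and GCLC, in control and HGF-treated cells alike. In untreated Detroit 562 it held AKR1B10 at 24.2% of the mean of the other libraries, AKR1C1 at 37.7% and GCLC at 51.1%. It was the lowest library for all 10 enzymes in untreated Detroit 562 and in both FaDu groups, and for 8 of 10 in HGF-treated Detroit 562. In SCC-9 it was the lowest for 1 of 10 in either group. Of all genes tested, the median difference of untreated Detroit 562 library 3 from the others was 0.00 on the log2 scale, and 2.25% of genes were at or below -1. Control and HGF libraries of the same number deviated together from their group means in every line, with correlations across genes from 0.16 to 0.56. Results are therefore also given from a model that blocks on the number inside each line (the replicate block). It is given wherever it changes a call of an enzyme.

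A gene is called here at an adjusted p below 0.1 if its log2 fold change is also 0.4 or more in size. In Detroit 562, 5 of the 10 enzymes were called lower after HGF and 0 higher. Among all 15475 genes tested 17.9% were called in either direction and 11.7% lower. The median log2 fold change of the enzymes was -0.81, against -0.01 for all genes.

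The AKR1C enzymes reduce ketosteroids and lipid aldehydes. AKR1C1 was at 241, 268 and 95.8 CPM in control replicates 1, 2 and 3 of Detroit 562 and at 83.5, 94.99 and 36.0 CPM in the HGF-treated ones. Every treated library was below every control library, but treated library 2 nearly reached control library 3. The log2 fold change was -1.49 ± 0.47 (SE, n = 3 per group, adjusted p = 0.0294). Each treated library held between 34.7% and 37.6% of its same-numbered control.

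AKR1C2 had 254, 288 and 103 CPM in control and 86.5, 98.6 and 36.5 CPM after HGF. These groups did not overlap either, and the log2 fold change was -1.54 ± 0.46 (SE, adjusted p = 0.0232). AKR1C3, which also makes testosterone and prostaglandins, had 122, 130 and 51.9 CPM in control and 43.2, 46.8 and 20.99 CPM after HGF. Its groups were separate, with a log2 fold change of -1.45 ± 0.41 (SE, adjusted p = 0.0176). The 3 AKR1C genes thus had much the same fold, but they share reads.

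AKR1B10 reduces retinal and other aldehydes and is hardly made in most normal tissue outside the gut. Its control libraries in Detroit 562 were at 141, 124 and 32.0 CPM and its HGF-treated ones at 37.0, 37.5 and 7.61 CPM. The groups overlapped, because control library 3 was below treated libraries 1 and 2. Each treated library nevertheless held only 23.8% to 30.3% of its own control. The log2 fold change of -1.85 ± 0.57 (SE, adjusted p = 0.0272) was larger in size than that of any other member. Leaving out control library 1 ended this call (log2 fold change -1.41, adjusted p = 0.133), and the call of AKR1C1 was lost without control library 1, control library 2 or treated library 3, with an adjusted p of at most 0.118.

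GCLC and GCLM are the catalytic and the modifier subunit of glutamate-cysteine ligase, the rate-limiting enzyme of glutathione synthesis. GCLC was at 617, 546 and 296 CPM in control and at 251, 269 and 157 CPM after HGF in Detroit 562. All treated libraries were below all controls, and the log2 fold change was -1.11 ± 0.28 (SE, adjusted p = 0.00944). GCLM was at 40.2, 38.7 and 32.7 CPM in control and 30.7, 31.8 and 33.7 CPM after HGF. Here the groups overlapped, treated library 3 was at 103% of its control, and GCLM was not called (log2 fold change -0.22 ± 0.12, SE, adjusted p = 0.197). The subunits of this enzyme were thus called differently in the same libraries, though their difference itself was not tested.

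NQO1, which reduces quinones without releasing semiquinone radicals, had 435, 449 and 318 CPM in control and 338, 335 and 248 CPM after HGF in Detroit 562. Each treated library was at 74.6% to 78.0% of its control. The log2 fold change of -0.39 ± 0.15 (SE) had an adjusted p of 0.0634 but stayed just under the minimum fold, and NQO1 was not called.

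TXNRD1, the cytosolic thioredoxin reductase, was at 882, 934 and 863 CPM in control and at 927, 938 and 882 CPM after HGF. The groups overlapped almost completely, with a log2 fold change of 0.04 and a 95% confidence interval from -0.18 to 0.25. SRXN1, or sulfiredoxin, restores overoxidized peroxiredoxins. It was at 121, 119 and 94.7 CPM in control and 111, 105 and 98.9 CPM after HGF. Its log2 fold change was -0.09 with an interval from -0.30 to 0.12, again with overlapping groups.

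HMOX1, the inducible heme oxygenase, was low in Detroit 562, at 3.89, 2.77 and 2.40 CPM in control and 2.18, 1.96 and 2.19 CPM after HGF. The groups did not overlap, but HMOX1 was not called (log2 fold change -0.52 ± 0.49, SE, adjusted p = 0.464). The model takes a common spread for each gene from all 18 libraries. HMOX1 replicates spread by 1.62 times in Detroit 562 controls, but by 3.92 times in FaDu controls and 5.17 times in treated FaDu. With the replicate block HMOX1 was called, at an adjusted p of 0.0518, which made 6 of 10 enzymes lower against 14.4% of all genes. No other call of Detroit 562 changed. Altogether 5 of the 10 enzymes had non-overlapping groups with HGF lower, and 20.1% of all genes did. A two-sided exact permutation test of single genes with 3 libraries against 3 cannot go below p = 0.1, which is the value these 5 enzymes had.

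**Figure D1:**
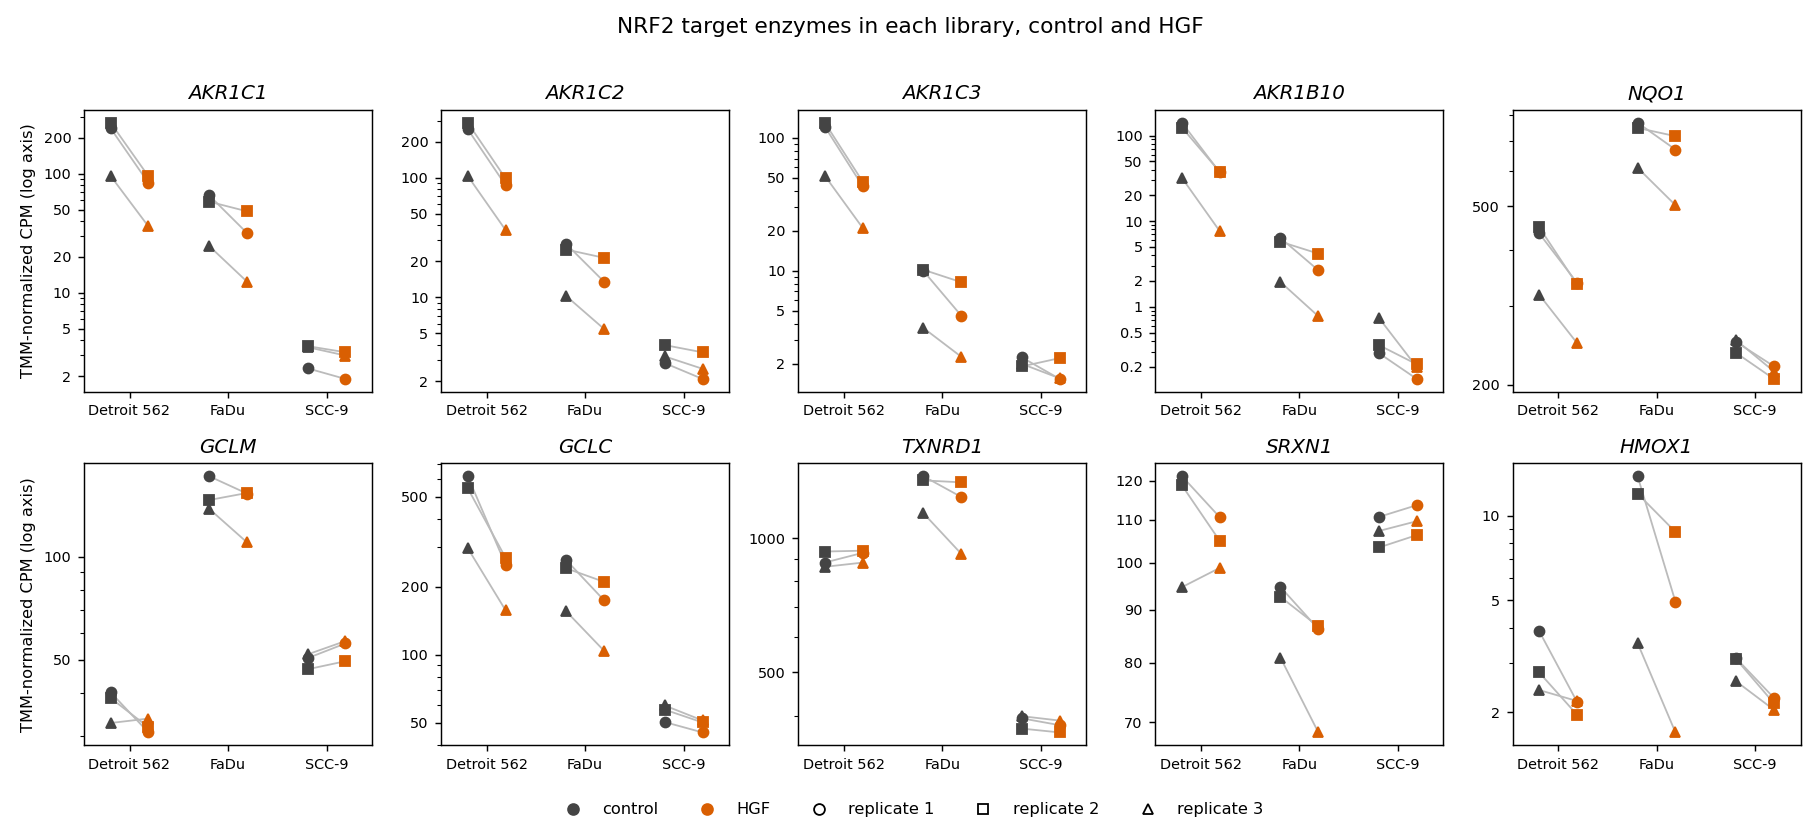
TMM-normalized CPM (log axis, with its own range in each panel) of the 10 enzymes in each of the 18 libraries. Lines join control and HGF-treated libraries of the same line and replicate number, and symbols give the number. In Detroit 562 all 3 lines of AKR1C1, AKR1C2, AKR1C3, AKR1B10 and GCLC run steeply down and those of TXNRD1 run level, while the triangles of replicate 3 lie lowest in Detroit 562 and FaDu for most enzymes and in SCC-9 for 1 enzyme per group.

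In FaDu 0 of the 10 enzymes were called after HGF by edgeR's quasi-likelihood test, 0 had an unadjusted p below 0.05, and DESeq2 called 0 as well. Of all genes, edgeR called 0.0258% in this line, all of them higher. The shares for DESeq2 and for the unadjusted p are not given, and the paper's DESeq2 fit called more genes in FaDu than edgeR did. The log2 fold changes of the enzymes lay between -0.93 and -0.13, with a median of -0.54 against 0.00 for all genes. No enzyme had groups that did not overlap, while 9.41% of all genes did. In 9 of 10 enzymes, all but GCLM, each treated library was below its same-numbered control, which 23.3% of all genes also showed.

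AKR1C1 was at 65.8, 58.2 and 24.7 CPM in FaDu controls and at 31.8, 48.3 and 12.4 CPM after HGF. Pair 2 differed little (83.0% of control) and pairs 1 and 3 more (48.2% and 50.2%). Without the block its log2 fold change was -0.69 ± 0.47 (SE, adjusted p = 0.687), and with the block -0.75 ± 0.11 (SE, adjusted p = 0.000535). AKR1C2 went from 27.9, 25.1 and 10.3 CPM to 13.5, 21.4 and 5.44 CPM, and AKR1C3 from 9.97, 10.2 and 3.71 CPM to 4.59, 8.20 and 2.25 CPM. Both had the same order of the pairs as AKR1C1.

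AKR1B10 was sparse in FaDu, at 6.36, 5.75 and 1.95 CPM in control and 2.67, 4.17 and 0.774 CPM after HGF. GCLC had 262, 241 and 156 CPM in control and 174, 210 and 104 CPM after HGF. HMOX1 was at 13.8, 11.98 and 3.52 CPM in control and 4.94, 8.75 and 1.69 CPM after HGF. For each of these genes the control library 3 lay below at least one treated library, so the groups overlapped, and in each of them pair 2 again differed least.

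With the replicate block 6 enzymes were called lower in FaDu and 0 higher, where 3.6% of all genes were called lower. They were AKR1C1, AKR1C2 (log2 fold change -0.70, adjusted p = 0.00124), AKR1C3 (-0.70, adjusted p = 0.00388), AKR1B10 (-0.92, adjusted p = 0.00156), GCLC (-0.46, adjusted p = 0.00139) and HMOX1 (-0.97, adjusted p = 0.00146). Of the cell type markers KRT5 (-0.58), COL1A1 (-0.59), CDH5 (-0.86) and VWF (-1.32) were called lower and CD68 (0.51) higher in FaDu with the block, and their part in the result was not tested. NQO1, GCLM, TXNRD1 and SRXN1 had blocked log2 fold changes between -0.18 and -0.14 and were not called. NQO1 had 768, 748 and 610 CPM in control and 669, 717 and 503 CPM after HGF, and TXNRD1 1378, 1348 and 1138 CPM and 1238, 1335 and 923 CPM. In both, the groups overlapped widely. GCLM ranged from 138 to 172 CPM in control and from 110 to 153 CPM after HGF, and SRXN1 from 80.9 to 94.7 CPM and from 68.5 to 86.7 CPM.

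In SCC-9 0 enzymes were called with edgeR and 0 with the block, 0 had an unadjusted p below 0.05, and DESeq2 called 0. Among all genes edgeR called 0% without the block and 1.97% with it. For DESeq2 and the unadjusted p the shares are not given, and the paper's DESeq2 fit called some genes in SCC-9. Log2 fold changes of the enzymes lay between -1.29 and 0.12 with a median of -0.21. Here 3 enzymes, AKR1B10, NQO1 and HMOX1, had HGF-treated libraries that were all below the controls, as did 9.12% of all genes. In 7 of 10 every treated library was below its same-numbered control, against 24.6% of all genes, and GCLM and SRXN1 were above it in every pair, as were 23.9% of all genes.

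NQO1 was at 249, 236 and 252 CPM in SCC-9 controls and 220, 206 and 214 CPM after HGF, a tight and small separation with 85.1% to 88.2% of control. Its log2 fold change was -0.20 ± 0.15 (SE, adjusted p = 1), and -0.20 with an adjusted p of 0.0231 under the block, below the minimum fold. HMOX1 went from 3.11, 3.09 and 2.57 CPM to 2.25, 2.15 and 2.04 CPM. AKR1B10 was near the limit of detection, at 0.287, 0.356 and 0.739 CPM in control (12 to 29 counts) and 0.143, 0.213 and 0.196 CPM after HGF (6 to 9 counts). A difference of AKR1B10 could hardly be tested at this depth, with a 95% confidence interval of the log2 fold change from -4.48 to 1.89.

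The AKR1C genes were likewise low in SCC-9. AKR1C1 had 2.32, 3.56 and 3.49 CPM in control and 1.89, 3.16 and 2.97 CPM after HGF, AKR1C2 ranged from 2.82 to 3.99 and from 2.08 to 3.47 CPM, and AKR1C3 from 1.90 to 2.22 and from 1.53 to 2.196 CPM. All 3 had overlapping groups and log2 fold changes between -0.31 and -0.21. GCLC ranged from 50.4 to 59.7 CPM in control and 45.3 to 51.2 CPM after HGF. TXNRD1 stayed between 367 and 399 CPM, SRXN1 between 103 and 114 CPM and GCLM between 46.9 and 56.7 CPM over both groups of this line.

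**Figure D2:**
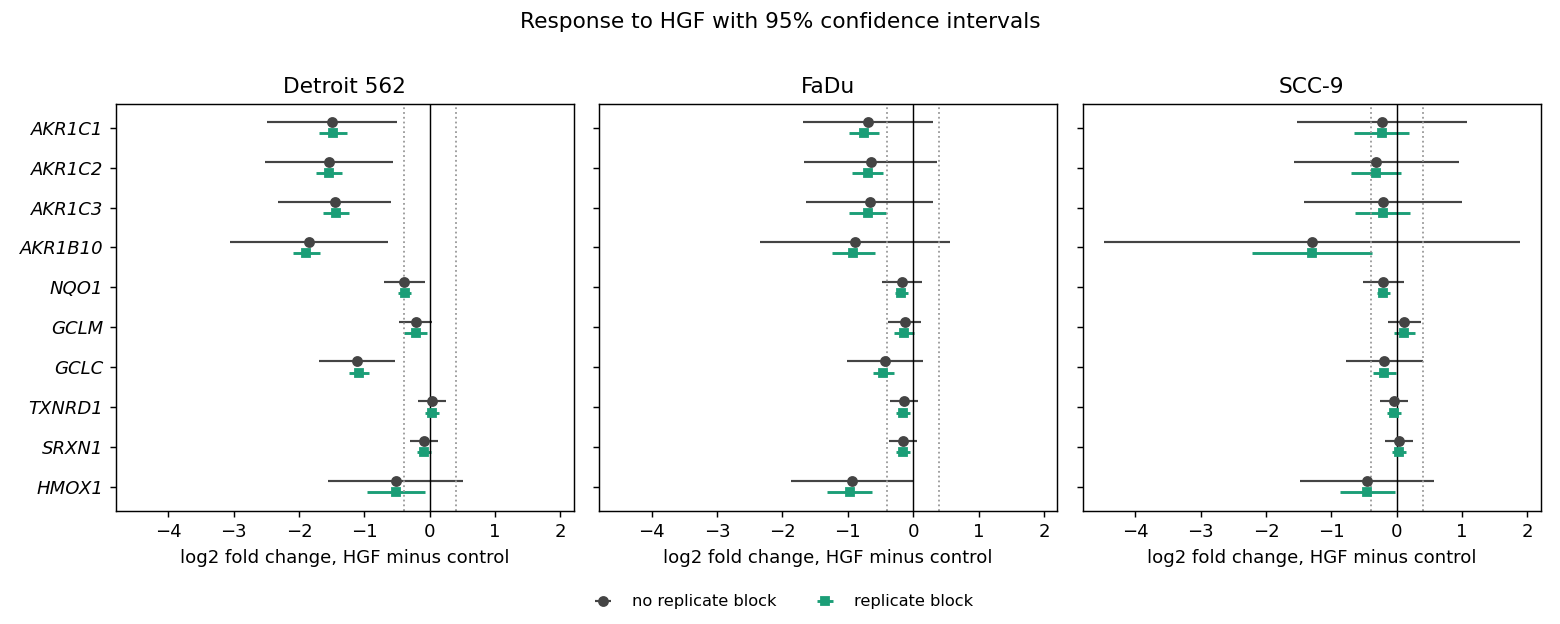
Log2 fold change of HGF against control for the 10 enzymes in each line, with 95% confidence intervals, from the model without a replicate block (circles) and with it (squares). Dotted lines mark the minimum fold of 0.4. The blocked intervals are narrower around nearly the same estimates, and they lie wholly below 0 for AKR1C1, AKR1C2, AKR1C3, AKR1B10, GCLC and HMOX1 in Detroit 562 and FaDu.

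Averaged over the 3 lines, AKR1C1, AKR1C2, AKR1C3 and GCLC were called lower (log2 fold changes -0.80, -0.83, -0.78 and -0.58), 4 of 10 against 4.88% of all genes. With the block AKR1B10 and HMOX1 were added (-1.37 and -0.65), 6 of 10 against 6.23% of all genes. This average rests on every line at once. It fell to GCLC alone without Detroit 562 control library 1 or 2, FaDu control library 1 or 2, or SCC-9 treated library 1, and to GCLC and AKR1C3 without SCC-9 control library 2.

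Whether the lines differed in their response was tested as an interaction, called at an adjusted p below 0.1 alone. The comparisons share libraries, since Detroit 562 enters the first 2 and each other line enters 2. Without the block 0 enzymes were called for Detroit 562 against FaDu, 0 for Detroit 562 against SCC-9 and 0 for FaDu against SCC-9, where 0.239%, 0.924% and 0% of all genes were. At an unadjusted p below 0.05 these counts were 0, 1 (GCLC) and 0, and DESeq2 called 0 in each. The shares of all genes by these measures are not given.

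With the block 7 of 10 enzymes differed between Detroit 562 and FaDu (19.1% of all genes). AKR1C1 (difference of log2 fold changes -0.73), AKR1C2 (-0.84), AKR1C3 (-0.74), AKR1B10 (-0.97), GCLC (-0.63) and NQO1 (-0.20) had the more negative response in Detroit 562. TXNRD1 had the more positive one there (0.19, adjusted p = 0.0856). Against SCC-9, 6 enzymes had the more negative response in Detroit 562 (26.9% of all genes in either direction). They were AKR1C1 (-1.25), AKR1C2 (-1.22), AKR1C3 (-1.22), GCLC (-0.89), GCLM (-0.33) and NQO1 (-0.18). FaDu and SCC-9 did not differ in any enzyme with the block either, where 1.32% of all genes did.

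For each enzyme the largest log2 difference between untreated lines was above its largest HGF response in size. Between untreated Detroit 562 and FaDu 9 of 10 enzymes were called (5 higher in Detroit 562 and 4 lower). Between Detroit 562 and SCC-9 8 were called (7 higher in Detroit 562 and 1 lower), and between FaDu and SCC-9 9, all higher in FaDu. Shares of all genes in either direction were 61%, 65.4% and 64.2%, so most genes differed between lines. Called higher in the first-named line were 31.2%, 31.4% and 30.7% of all genes, and lower 29.8%, 33.9% and 33.5%. Each line enters 2 of these comparisons with the same 3 control libraries.

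The aldo-keto reductases separated the lines most. Mean AKR1B10 was 98.9 ± 58.6 CPM in untreated Detroit 562, 4.69 ± 2.39 CPM in FaDu and 0.461 ± 0.243 CPM in SCC-9 (SD, n = 3), a ratio of 215 between the extremes. AKR1C1 was at 201 ± 92.5, 49.6 ± 21.9 and 3.13 ± 0.70 CPM in the same order, a ratio of 64.5. No library of one line reached the range of another in either gene. For AKR1C2 (ratio 64.4) and AKR1C3 (49.7) the order of the lines was the same, and all 12 differences of these 4 genes between lines were called, from a log2 difference of 1.96 for AKR1C3 between FaDu and SCC-9 to 7.75 for AKR1B10 between Detroit 562 and SCC-9.

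GCLC followed the same order, with 486 ± 168, 220 ± 56.5 and 55.8 ± 4.799 CPM (ratio 8.72), and was called in all 3 comparisons. GCLM did not follow it. It was highest in FaDu at 152 ± 17.6 CPM, with 49.8 ± 2.56 CPM in SCC-9 and 37.2 ± 3.97 CPM in Detroit 562, and the log2 difference between Detroit 562 and FaDu was -2.03 ± 0.12 (SE, adjusted p = 1.77e-10). Between Detroit 562 and FaDu the modifier subunit was therefore lower and the catalytic subunit higher. The difference of GCLM between Detroit 562 and SCC-9 was small (-0.42 ± 0.12, adjusted p = 0.00416) and was under the minimum fold without control library 3 of either line.

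NQO1, TXNRD1 and HMOX1 were highest in FaDu. NQO1 had 709 ± 86.3 CPM there, 401 ± 72.3 CPM in Detroit 562 and 245 ± 8.62 CPM in SCC-9. TXNRD1 had 1288 ± 130.5, 893 ± 36.6 and 389 ± 13.2 CPM, and both were called in all 3 comparisons. HMOX1 was at 9.77 ± 5.49 CPM in FaDu, 3.02 ± 0.78 CPM in Detroit 562 and 2.92 ± 0.30 CPM in SCC-9. The latter lines could not be told apart in HMOX1 (log2 difference 0.05, 95% confidence interval from -0.96 to 1.05), and FaDu library 3, at 3.52 CPM, lay within the range of Detroit 562. SRXN1 was nearly level, at 112 ± 14.7, 89.4 ± 7.46 and 107 ± 3.66 CPM, and was not called in any of the comparisons because its log2 differences were at most 0.32.

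**Figure D3:**
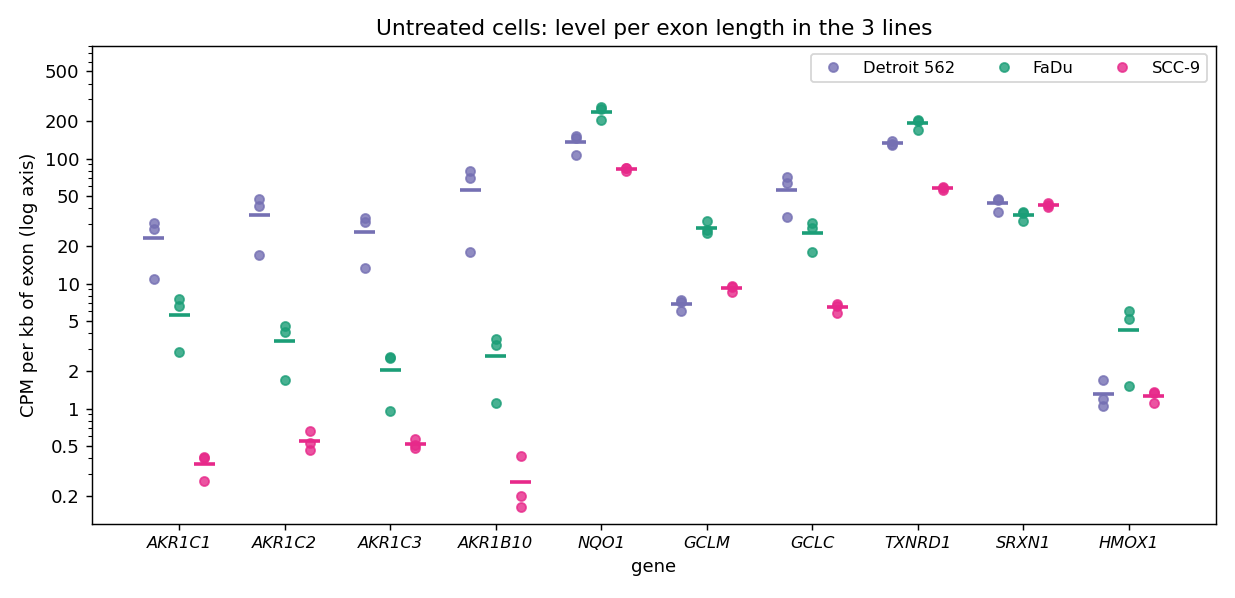
Level per exon length (TMM-normalized CPM divided by the kilobases of exon of each gene, log axis) in the 3 untreated libraries of each line, with bars at the mean. The aldo-keto reductases fall from Detroit 562 to FaDu to SCC-9, SRXN1 lies between 32.0 and 48.0 in all 9 libraries, and NQO1 and TXNRD1 are the highest in every line.

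Levels of different genes can be compared only per length, and their order depends on the length used. The union of exons was used here, which is 3911 bases in AKR1C3 against 1186 in its main transcript, while both are 2528 in SRXN1. As CPM per kilobase of exon, NQO1 (135 ± 24.3, SD, n = 3) and TXNRD1 (133 ± 5.46) led in untreated Detroit 562 and their ranges overlapped. Next came GCLC (56.4), AKR1B10 (55.8), SRXN1 (44.1), AKR1C2 (35.4), AKR1C3 (25.9) and AKR1C1 (23.0), each overlapping its neighbour in this order. GCLM (6.85) and HMOX1 (1.31) stood clearly below. NQO1 and TXNRD1 led in FaDu too, at 238 and 192, and in SCC-9 at 82.6 and 58.0. In SCC-9 SRXN1 followed at 42.4, and AKR1B10 came last at 0.26 CPM per kilobase, after 55.8 in Detroit 562.

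The antioxidant response element is bound through a core that is written here as TGACNNNGC, where N is any base. RefSeq windows of 300 bases, from 250 before to 50 after the start (GRCh38.p14), were found for 8 of the members, and no window was matched for AKR1B10 and HMOX1. The core stood on either strand in 2 of the 8, GCLM and TXNRD1, and in 13.3% of all 35116 windows. In windows that began 2000 bases before the start it stood in 7 of the 8, all but SRXN1, and in 53% of all windows. A member was counted if any of its windows held the core, while the percentages are of single windows. A gene can have more than 1 window, as TXNRD1 does, so the counts and percentages are unlike measures. For each of the 7 members 1 match is printed, with 10 bases on each side, so that called and uncalled enzymes can be set side by side. Capitals mark the core, and each line reads 5′ to 3′ on the strand that carries it.
GCLM, chr1:93909446-93909474, plus strand: tggaagacaaTGACTAAGCagaaatcgta
TXNRD1, chr12:104215761-104215789, minus strand: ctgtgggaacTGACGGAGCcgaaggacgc
NQO1, chr16:69726997-69727025, minus strand: gcagtcacagTGACTCAGCagaatctgag
GCLC, chr6:53545953-53545981, plus strand: aaatatgtgtTGACAGAGCaatgacctgt
AKR1C1, chr10:4961536-4961564, minus strand: taaaataaaaTGACAAGGCatacaaggaa
AKR1C2, chr10:5005684-5005712, plus strand: aaaaataaaaTGACAAGGCatacaaagaa
AKR1C3, chr10:5092996-5093024, minus strand: agaaaattgcTGACAAGGCcttagggttt
The core began 34 bases before the start in GCLM, 8 in TXNRD1, 455 in NQO1, 870 in GCLC, 1869 in AKR1C1, 1845 in AKR1C2 and 1408 in AKR1C3. The match nearest to a start is shown, except in AKR1C2, where the one shown resembles that of AKR1C1. The GCLM and TXNRD1 stretches overlap a non-coding part of an exon in GENCODE 44. Those of GCLC, AKR1C2 and AKR1C3 lie in introns, since GENCODE 44 extends these genes beyond the RefSeq start used here, and those of NQO1 and AKR1C1 lie before the gene. The core was near the start in GCLM and TXNRD1, which were not called in Detroit 562. It was farther away in the uncalled NQO1 and in the called GCLC and AKR1C genes, and not found in the uncalled SRXN1. Whether the core goes with the calls was not tested. So common a core, with no window for AKR1B10 and HMOX1, cannot decide it. A match is only a run of letters, not a site that is known to be bound.

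Other genes of the pathway were taken from 7 lists of 73 genes, of which 71 were tested. In Detroit 562 21 of these fell and 2 rose after HGF, where 11.7% of all genes fell and 6.16% rose (median log2 fold change -0.24, against -0.01 for all genes). In FaDu and SCC-9 0 were called without the block by edgeR. With the block 11 fell and 1 rose in FaDu, where 3.6% and 2% of all genes did, and 2 fell in SCC-9, against 1.41% of all genes. The counts of the single lists in Detroit 562 are without the block and to be read against the same 11.7% and 6.16%. With the block further heme and iron genes and other NRF2 targets were called lower there and a glutathione gene higher. Of all genes, 14.4% were called lower and 7.13% higher with it.

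Of the 11 NRF2 regulators 2 fell and 1 rose in Detroit 562, a share not far from that of all genes called (17.9%). NFE2L2, which encodes NRF2, fell from 201 ± 19.6 to 145 ± 9.44 CPM (SD, n = 3, log2 fold change -0.47 ± 0.07 SE, adjusted p = 0.000653). BACH2, a repressor at these elements, fell at a low level from 2.36 to 1.54 CPM (-0.61, adjusted p = 0.0899). MAFF, a small MAF partner, rose from 8.41 ± 2.30 to 15.5 ± 5.86 CPM (0.88 ± 0.23, adjusted p = 0.0114). KEAP1, its ubiquitin ligase partners CUL3 and RBX1, MAFG, MAFK, the repressor BACH1, NFE2L1 and the KEAP1-binding SQSTM1 had log2 fold changes between -0.32 and 0.21 and were not called. In FaDu MAFF was called with the block alone (0.46, adjusted p = 0.0164), and NFE2L2 had -0.12 in FaDu and -0.13 in SCC-9 without being called.

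Enzymes that supply NADPH, which several but not all of the members consume, fell in Detroit 562 in 5 of 6 cases (median of the list -0.52). IDH1 (-0.57, adjusted p = 0.0646) and PGD (-0.56, adjusted p = 0.0608) had the largest changes. Among heme and iron genes 4 of 9 fell and 1 rose. SLC40A1, the iron exporter ferroportin, fell by 1.165 on the log2 scale (adjusted p = 0.00432). FECH, which inserts iron to form heme, fell by 0.71 (adjusted p = 0.019), while HMOX2, the constitutive heme oxygenase, rose by 0.63 (adjusted p = 0.000178).

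Of the other aldo-keto reductases 3 of 8 fell in Detroit 562, led by AKR1B15 (-1.97, adjusted p = 0.0207) and AKR1C4 (-1.54, adjusted p = 0.0185). AKR1B15 and AKR1C4 are close copies of AKR1B10 and the AKR1C genes, at 7.79 and 8.69 CPM in control, and share reads with them. Among 13 other glutathione genes GPX2, a glutathione peroxidase, fell by 1.13 (adjusted p = 0.0299) and GGT1, which breaks glutathione down outside the cell, by 0.88 (adjusted p = 0.00544). Of 13 further NRF2 targets 5 fell, with PIR (-1.004, adjusted p = 0.00894) and EPHX1, the microsomal epoxide hydrolase (-0.86, adjusted p = 0.0448), ahead. Of the 11 other thioredoxin and peroxiredoxin genes 0 were called by edgeR, and 1, TXNIP, with the block.

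**Figure D4:**
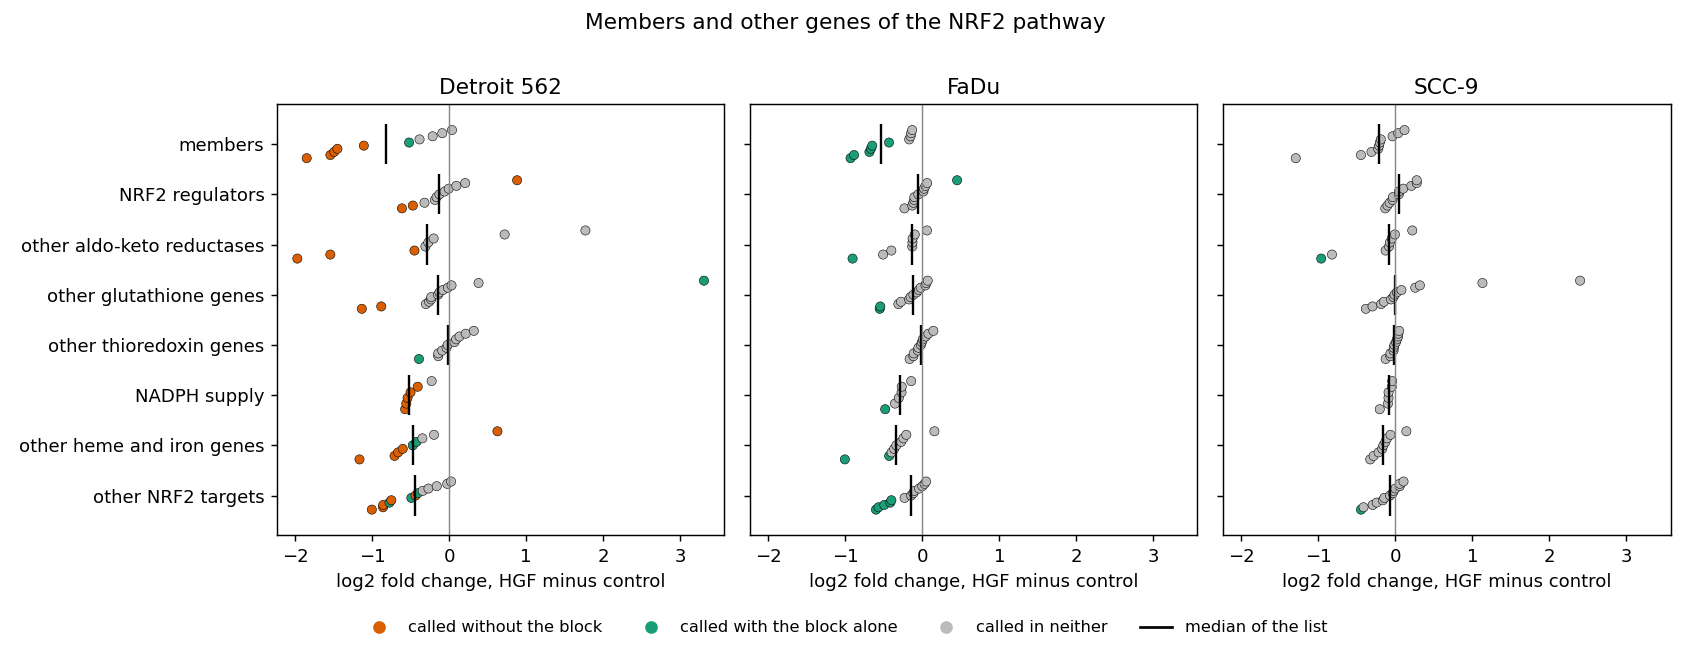
Log2 fold change of HGF against control for the 10 enzymes (members) and the 71 tested genes of 7 pathway lists in each line. Colors give the call without the block, with the block alone or in neither, and bars give each list's median. In Detroit 562 the medians of the members (-0.81), NADPH supply (-0.52), heme and iron genes (-0.47) and other NRF2 targets (-0.44) lie below 0, and that of the thioredoxin genes is at -0.02.

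In untreated cells 42 of the 71 pathway genes were called between Detroit 562 and FaDu (28 higher in Detroit 562), 51 between Detroit 562 and SCC-9 (37 higher) and 52 between FaDu and SCC-9 (35 higher in FaDu). All genes were called at 61%, 65.4% and 64.2% in either direction, and the totals are not far from that background. By direction, 31.2%, 31.4% and 30.7% of all genes were called higher in the first-named line. A larger share of the pathway genes was higher in each comparison, most clearly against SCC-9, which also differs in medium. AKR1C4 followed its relatives, with log2 differences of 2.91, 5.52 and 2.61 in this order. GPX2 was at 119 and 123 CPM in Detroit 562 and FaDu but at 0.285 CPM in SCC-9. AKR1E2 ran the other way, with 5.25 CPM in SCC-9, 0.602 CPM in FaDu and 0.00786 CPM in Detroit 562. SLC40A1 (12.8 CPM) and GGT1 (21.9 CPM) were highest in Detroit 562, and NR0B1 was read in Detroit 562 (2.58 CPM) and listed at 0 in every library of FaDu and SCC-9.

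Within the lines the enzymes also varied together between libraries. After the mean of each line was subtracted, Pearson's r of log2 CPM over the 18 libraries was between 0.54 (GCLC and TXNRD1) and 0.99 (AKR1C1 and AKR1C2) for all pairs of members. These points share the treatment and the low libraries numbered 3, and the AKR1C genes share reads, so the values are a description. Without the subtraction r ran from -0.68 (GCLM and SRXN1) to 0.99, and SRXN1 was at -0.19 to the mean profile of the members. With it AKR1C3 was closest to the mean profile of the members (0.95) and TXNRD1 farthest (0.71). The genes outside the set with the most similar profile were C15orf38-AP3S2 (r = 0.98), RNF10, BTC, SMO and HADHA (0.97 each) by this measure. Over the 18 libraries without subtraction, where the differences between lines dominate, they were TAX1BP3 (r = 0.98) and its read-through P2RX5-TAX1BP3, UGT1A4, UGT1A5 and UGT1A1 (0.97 each). The UGT1A genes share exons, so these are not separate matches.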

How the data were processed

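mRNA was sequenced from 18 libraries of 3 cell lines. The authors made stranded libraries, trimmed the reads with Cutadapt 1.16, mapped them with STAR 2.5.2b to GRCh38.p12 and counted alignments per gene with bedtools against GENCODE 28, and they deposited these raw counts as whole numbers without normalization. Because bedtools was run over whole gene extents, a read can be counted for overlapping genes and, where it maps to several places, for several copies.

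The counts were filtered with filterByExpr on the 6 groups (15475 of 19901 genes kept), TMM-normalized and fitted with edgeR 4.0.16 in R 4.3.3, by a quasi-likelihood model with 1 mean per line and treatment over all 18 libraries. Its p values were adjusted by the Benjamini-Hochberg procedure over the whole table of tested genes. Calls use the thresholds named in the methods of the authors (0.1 for the adjusted p, 0.4 for the size of the log2 fold change). Confidence intervals are at 95%. DESeq2 1.42.0 was an alternative, beside its size factors, other filters, no minimum fold, single-line fits, the replicate block and each library left out. Control and HGF libraries of the same line and number correlated at 0.16 to 0.56 in their deviations from the group means (9 pairs, mean 0.35). Unlike numbers of a line ranged from -0.49 to 0.22 (18 pairs, mean -0.17), so the numbers were taken to pair libraries within a line. In Detroit 562 the pairing of libraries 1 and 2 was less clear. Control 1 correlated at 0.22 with HGF 2, above the 0.16 of control 2 with HGF 2. Across lines same-numbered libraries ranged from -0.17 to 0.34. Between Detroit 562 and FaDu all 12 such values were positive (0.044 to 0.34), with 0.203, 0.0999 and 0.326 for the control libraries, just short of the 0.1 asked of every pair. On simulated counts of Detroit 562, 200 genes were changed by a log2 of 1. With a replicate effect of SD 0.3, the model without the block recovered 42% and the blocked one 86%, with 0% and 9.95% false calls. In that setting alone the remaining spread between libraries was also capped, so the gain need not be that of the real counts. With no replicate effect the models recovered 85% and 83%, with 7.61% and 9.29% false calls.

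All members and the 11 NRF2 regulators are named. From each other pathway list, at most 2 called genes per direction and comparison were eligible, those with the largest fold, and some of these are given by level. KRT5, CDH1, COL1A1, COL1A2, VWF, CDH5, CD68 and TXNIP were named after their values were seen. The members and lists were chosen with earlier results of these data known. Values per kilobase use the union of GENCODE 44 exons.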

Additional observations from a re-analysis of the deposited data

Results flagged for a closer look

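TXNRD1 was above its same-numbered control in all 3 pairs of Detroit 562 and below it in all 3 pairs of FaDu and of SCC-9. The test of the difference between Detroit 562 and FaDu gave a log2 difference of 0.181 (adjusted p = 0.646, and 0.0856 with the replicate block), and that between Detroit 562 and SCC-9 gave 0.0739 (adjusted p = 0.847). SRXN1 was below its control in all 3 pairs of FaDu and above it in all 3 pairs of SCC-9, with a log2 difference of -0.189 (adjusted p = 1). Apart from the blocked value of TXNRD1 against FaDu, none of these differences passed the test of the difference itself, and all of them were under 0.2 on the log2 scale.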

How the results depend on the processing

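The replicate block raised the members called from 0 to 6 in FaDu, and in the differences of response from 0 to 7 for Detroit 562 against FaDu and from 0 to 6 for Detroit 562 against SCC-9. It changed no other count by over 1.5 times. A block shared by the lines, added after seeing the data, left the untreated counts at 9, 8 and 9, and the planned block inside each line was not run there, because such a block cannot compare lines. Without all libraries numbered 3, also added afterwards, 1 member (AKR1B10) was called in FaDu, 2 (AKR1B10, GCLC) in Detroit 562 against FaDu and 5 in Detroit 562 against SCC-9. DESeq2, its size factors, both filters, no minimum fold and single-line fits kept each count of calls within 1.5 times. With 1 library left out the members called ranged from 3 to 6 in Detroit 562 (3 without control library 1), from 1 to 6 for the mean of the lines and from 0 to 1 for Detroit 562 against SCC-9 (GCLC without Detroit 562 control library 3), and stayed at 0 in FaDu, SCC-9 and the other differences of response. Of 2660 single values recomputed, 20 changed sign, all of members not called in either fit and all under 0.2 in size on the flipped side. One was SRXN1 in Detroit 562 against FaDu without all libraries numbered 3 (-0.047), and 19 arose on leaving out 1 library. Their ranges over such fits were, in FaDu, -0.21 to 0.023 for GCLM and -0.25 to 0.0098 for TXNRD1, and for the mean of the lines -0.085 to 0.0047 for TXNRD1. In Detroit 562 against FaDu they were -0.049 to 0.13 for SRXN1 and -0.014 to 1.03 for HMOX1, and in Detroit 562 against SCC-9 -0.21 to 0.15 for HMOX1. In FaDu against SCC-9 they were -0.84 to 0.048 for AKR1C2, -0.14 to 0.85 for AKR1B10, -0.072 to 0.18 for NQO1, -0.47 to 0.0067 for GCLC and -0.22 to 0.047 for TXNRD1. For untreated Detroit 562 against SCC-9 they were -0.0044 to 0.16 for SRXN1 and -0.18 to 0.19 for HMOX1. The causes were not tested. Depth limited AKR1B10 in SCC-9, with at most 29 counts per library.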
